A study of Mus musculus with 9 samples.

Results

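Endothelial cells line the blood vessels that invade the embryonic brain, and 10 genes that mark them are described here across 9 libraries of mouse telencephalon: Kdr, Flt1, Flt4, Tek, Tie1, Eng, Pecam1, Cdh5, Cldn5 and Esam. They were taken by symbol from a list of endothelial genes, which was drawn up with earlier results of these data known. All 10 were among the 34590 genes of the files and among the 17182 genes that passed the filter on low counts. The tissue was the forebrain part that forms cerebral cortex and basal ganglia, from mice of mixed background at stage E12.5, early in neurogenesis. The 5 wild-type (WT) embryos were controls, and the 4 dKO embryos lacked the Hippo pathway kinases Lats1 and Lats2 wherever Nestin-Cre had removed them, a Cre recombinase used to delete genes in neural progenitors. The sources used here do not give the deleted exons, the litters or any allele of the controls beyond wild type. RNA was extracted from an equal number of counted cells of the dissociated tissue, whose cell types had not been sorted, and synthetic ERCC spike-in RNA was added in proportion to the cells. The series title asks whether the pathway restrains transcription driven by YAP and TAZ across the genome.

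Kdr (VEGFR2) is the main signalling receptor for the growth factor VEGF-A in endothelium, Flt1 (VEGFR1) binds the same ligand tightly and can act as a decoy, and Flt4 (VEGFR3) is the receptor for VEGF-C. Tek (TIE2) is the receptor of the angiopoietins, and Tie1 is its orphan partner. Eng (endoglin) is a co-receptor for BMP9 and TGF-beta family ligands, while Pecam1, Cdh5 (VE-cadherin), Cldn5 (claudin 5) and Esam hold endothelial cells to each other. Brain vessels grow in from outside, guided by VEGF-A and Wnt7 ligands made by neural progenitors, so endothelial cells are neighbours of the progenitors and not their progeny.

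Promoter sequences are shown for 3 receptor genes that the results turn on: Flt1, the single call relative to the library, Kdr, the most abundant member, and Tie1, the member closest to the mean pattern over libraries. They are the 250 bases before the start site, 5′ to 3′ on the gene's strand, from RefSeq on build GRCm38.p6. The deposited counts were made on mm9, so no coordinate was carried between builds. Kdr is on the minus strand at chr5:75978456-75978705, Flt1 on the minus strand at chr5:147726012-147726261 and Tie1 on the minus strand at chr4:118489850-118490099. Capitals mark AGGAAG on either strand, a core that ETS family transcription factors bind and that is common in endothelial promoters.
Flt1: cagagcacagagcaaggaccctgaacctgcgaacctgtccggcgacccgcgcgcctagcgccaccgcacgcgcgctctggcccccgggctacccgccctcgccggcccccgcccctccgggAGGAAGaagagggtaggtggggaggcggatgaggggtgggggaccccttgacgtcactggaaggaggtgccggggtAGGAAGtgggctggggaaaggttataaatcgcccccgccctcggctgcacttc
Kdr: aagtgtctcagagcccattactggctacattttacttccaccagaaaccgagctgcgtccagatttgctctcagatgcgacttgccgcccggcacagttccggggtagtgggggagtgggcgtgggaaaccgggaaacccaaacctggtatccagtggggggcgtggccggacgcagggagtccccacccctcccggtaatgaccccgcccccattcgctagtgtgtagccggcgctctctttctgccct
Tie1: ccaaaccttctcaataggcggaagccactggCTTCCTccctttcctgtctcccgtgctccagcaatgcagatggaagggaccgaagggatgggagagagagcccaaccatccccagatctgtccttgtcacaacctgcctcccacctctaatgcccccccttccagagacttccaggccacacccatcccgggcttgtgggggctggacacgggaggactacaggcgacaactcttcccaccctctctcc
A promoter was matched for 7 of the 10 members. AGGAAG was found 2 times in Flt1, at 129 and 53 bases before the start, 2 times in Eng, 1 time in Tie1, and in no window of Kdr, Flt4, Tek or Cldn5. It occurs in 29.5% of the 32851 promoter windows of this length. GGAATG, the core bound by the TEAD partners of YAP and TAZ, occurred in 0 of the 7 windows and in 12.6% of all windows, and GATAAG, bound by GATA factors, in 0 of 7 and in 6.55%. No matches overlapped each other. A match describes these letters alone and does not show binding.

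Depth was 12906561 to 39263370 gene counts in WT and 16566763 to 45803152 in dKO, and the members held from 100 counts (Flt4, WT 1) to 4236 counts (Kdr, dKO 1) in a library. Gene counts per spike-in count were 49.9 to 63.5 in WT and 71.1 to 83.7 in dKO. Values are therefore given on 2 scales: CPM, counts scaled to the same TMM-adjusted library total, which compares a gene with the typical gene of its library, and counts per 1000 spike-in counts, which follows RNA per cell where equal cells and equal spike-in entered each tube. WT 2, 3 and 4 stood apart, with 39.3% to 41.3% of their reads in no gene against 32.03% to 35.6% in the other 6 libraries. Counts of called genes relative to the library are therefore also given without them. Those fits keep only WT 1 and WT 5 as controls. The 10 members summed to a mean of 305 CPM in WT 1 and WT 5 and of 270 CPM in WT 2, 3 and 4. With fewer controls that differ in this way, a call lost there does not by itself show that the difference was absent. Telencephalic markers were present, such as Nes at 784 ± 58.5 CPM (SD, n = 5) in WT, and 9 of 10 midbrain, hindbrain and spinal cord markers were too low to test. Hoxc6 had 0 counts in all 9 libraries.

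Per spike-in count 6 of the 10 endothelial genes rose in dKO, as did most tested genes, while within the library their summed level was nearly equal in the groups. The 10 members summed to 284 ± 26.3 CPM over the WT libraries (SD, n = 5) and to 283 ± 33.2 CPM over the dKO libraries (n = 4). Per 1000 spike-in counts the sum was 16.6 ± 2.65 in WT and 22.3 ± 2.97 in dKO, a ratio of 1.35. In bulk tissue the number of cells of a type and the RNA per cell cannot be told apart. These sums therefore do not separate the number of vessel cells from their RNA content. Relative to the library, 1 of 10 members was called higher and 0 lower, with edgeR at an adjusted p under 0.05, where 13.7% of all tested genes were higher and 12% were lower. The single call was Flt1. DESeq2 and limma-voom likewise gave 1 higher and 0 lower, and edgeR at an unadjusted p under 0.05 gave 1 higher and 0 lower (19.4% and 18.6% of all genes). The median relative log2 fold change was -0.08 over the members and -0.01 over all tested genes. Per spike-in count 6 of 10 members were higher and 0 lower (0 also unadjusted, and in DESeq2 and voom), beside 61.1% higher and 0.698% lower of all genes, 61.8% in either direction (64.9% and 0.873% unadjusted). There the median was 0.35 over the members and 0.43 over all genes. Without WT 2, 3 and 4, relative to the library 0 members were higher and 0 lower (0 also unadjusted, edgeR; 2.51% and 0.949% of all genes, 3.46% in either direction), and per spike-in count 3 were higher and 0 lower (49.1% and 0.25% of all genes, 49.4% in either direction).

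**Figure D1:**
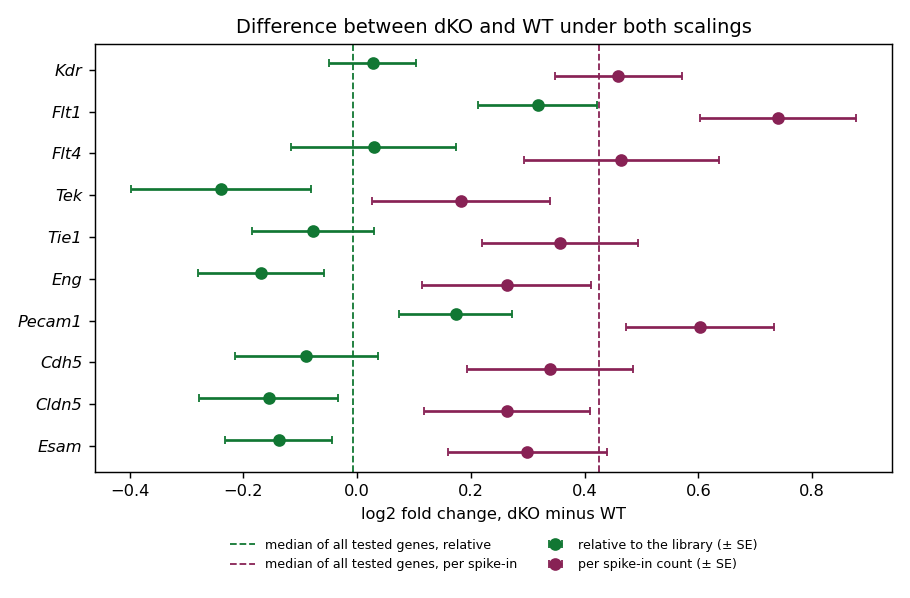
Difference between dKO and WT in log2 units for each member (points, with standard error bars), relative to the library and per spike-in count; dashed lines are the medians over all 17182 tested genes, at -0.01 and 0.43. Flt1 and Pecam1 lie farthest to the right on both scales and Tek farthest to the left.

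Among the VEGF receptors, Kdr had the highest level, and its CPM overlapped fully between the groups. In WT 1 to 5 it stood at 96.03, 90.03, 90.6, 80.5 and 106 CPM, and in dKO 1 to 4 at 94.0, 91.1, 105 and 86.5 CPM. The dKO values lay within the WT range. Its relative log2 fold change was 0.03 (SE 0.08, adjusted p = 0.830, edgeR), with a 95% interval of -0.14 to 0.20. Per 1000 spike-in counts Kdr had 5.20, 4.48, 5.77, 4.91 and 6.61 in WT and 6.57, 7.67, 8.30 and 7.13 in dKO. Only dKO 1 fell below the highest WT library on this scale. The log2 fold change per spike-in count was 0.46 (SE 0.11, adjusted p = 0.000825, edgeR), and it passed without WT 2, 3 and 4 (0.33, adjusted p = 0.0442).

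Flt1, the decoy receptor, was the member with the largest difference between the groups on both scales. It stood at 23.4, 20.9, 22.97, 21.5 and 30.02 CPM in WT 1 to 5 and at 31.7, 25.8, 29.8 and 31.4 CPM in dKO 1 to 4. The dKO libraries exceeded WT 1 to 4, and WT 5 overlapped with them. The relative log2 fold change was 0.32 (SE 0.10, adjusted p = 0.0452, edgeR), a 1.25-fold difference. The call rested on the set of libraries: it passed in 2 of the 9 fits that left out 1 library (without WT 5, adjusted p = 0.00405, and without dKO 2, 0.0290) and not in the other 7 (without WT 1, 0.0694; WT 2, 0.103; WT 3, 0.0939; WT 4, 0.104; dKO 1, 0.119; dKO 3, 0.0806; dKO 4, 0.0964). Without WT 2, 3 and 4 together the value was 0.14 (adjusted p = 0.579, edgeR), and with upper quartile normalization it was 0.30 (adjusted p = 0.0509). Per 1000 spike-in counts Flt1 had 1.27, 1.04, 1.46, 1.31 and 1.87 in WT and 2.22, 2.18, 2.34 and 2.59 in dKO. These groups did not overlap, which was so, with dKO higher, at 48.4% of all tested genes. The log2 fold change per spike-in count was 0.74 (SE 0.14), with an adjusted p of 2.65e-06 to 0.000556 over the 9 fits without 1 library (edgeR). Gene-level counts do not separate the membrane form of Flt1 from its soluble form.

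Flt4, the VEGF-C receptor, was the member with the lowest level and did not pass relative to the library. It had 7.65, 8.93, 9.17, 8.83 and 9.58 CPM in WT 1 to 5 and 7.34, 10.1, 11.6 and 7.02 CPM in dKO 1 to 4. The dKO libraries lay on both sides of the WT range. The relative value was 0.03 (SE 0.14, adjusted p = 0.910, edgeR). Per spike-in count it rose by a log2 of 0.46 (SE 0.17, adjusted p = 0.0190, edgeR), which did not pass without WT 2, 3 and 4 together (adjusted p = 0.0686), nor when WT 2 (0.0726), dKO 2 (0.0790) or dKO 3 (0.135) was left out.

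The angiopoietin receptor pair had negative relative values that did not pass. Tek had 19.6, 18.8, 20.7, 20.1 and 24.3 CPM in WT 1 to 5 and 16.2, 19.7, 22.5 and 11.2 CPM in dKO 1 to 4. The value of dKO 4 was the lowest of all 9 libraries, while dKO 2 and 3 lay inside the WT range. Relative to the library Tek differed by -0.24 on the log2 scale (95% interval -0.59 to 0.11), which did not pass in edgeR (SE 0.16, adjusted p = 0.297). Tek also had the smallest difference per spike-in count, 0.18 (SE 0.16, adjusted p = 0.311, edgeR); leaving out dKO 4 brought it to 0.32 (adjusted p = 0.0487). Tie1 ranged from 25.9 to 31.6 CPM in WT and from 21.7 to 32.2 CPM in dKO, with a relative value of -0.08 (SE 0.11, adjusted p = 0.645, edgeR). Per spike-in count Tie1 rose by 0.36 (SE 0.14, adjusted p = 0.0245, edgeR), which did not pass without WT 2, 3 and 4 together (adjusted p = 0.179), nor when WT 1 (0.0600), WT 2 (0.0774), dKO 2 (0.0576) or dKO 3 (0.186) was left out. Eng ranged from 13.5 to 16.9 CPM in WT and 11.1 to 15.6 CPM in dKO. Its values of -0.17 relative to the library (SE 0.11, adjusted p = 0.291) and 0.26 per spike-in count (SE 0.15, adjusted p = 0.121) did not pass in edgeR; per spike-in count Eng passed without WT 5 (adjusted p = 0.0384) or dKO 1 (0.0268).

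Of the 4 junction genes, Pecam1 had a positive relative value and the others negative ones, and none passed relative to the library. Pecam1 had 30.6, 28.8, 28.5, 23.5 and 33.1 CPM in WT 1 to 5 and 34.0, 30.3, 36.9 and 28.9 CPM in dKO 1 to 4. The 2 groups overlapped, with dKO 1 and dKO 3 above every WT library. Its relative log2 fold change was 0.17 (SE 0.10, adjusted p = 0.227, edgeR). Per 1000 spike-in counts Pecam1 had 1.66, 1.43, 1.81, 1.44 and 2.07 in WT and 2.38, 2.55, 2.90 and 2.38 in dKO. Every dKO library exceeded every WT library, and the log2 fold change was 0.60 (SE 0.13, adjusted p = 0.000243, edgeR; 0.45 and 0.0210 without WT 2, 3 and 4). Flt1 and Pecam1 were the 2 members of 10 whose groups did not overlap per spike-in count, with dKO higher. That was so at 48.4% of all tested genes on this scale. Relative to the library no member's groups were free of overlap, against 12.6% of all genes with dKO higher and 9.74% with dKO lower.

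Cdh5 had 33.3, 33.2, 35.3, 31.0 and 43.6 CPM in WT 1 to 5 and 30.7, 34.6, 40.7 and 26.4 CPM in dKO 1 to 4. Both groups spread widely and overlapped, with a relative value of -0.09 (SE 0.13, adjusted p = 0.651, edgeR). Per spike-in count Cdh5 rose by 0.34 (SE 0.15, adjusted p = 0.0426, edgeR), a call that did not pass in DESeq2 (adjusted p = 0.0521), with TMM over the spike-ins (0.0607) or without WT 2, 3 and 4 (0.326). It also failed when WT 1 (0.0818), WT 2 (0.148), WT 4 (0.0775), dKO 2 (0.102) or dKO 3 (0.206) was left out. Cldn5, the main claudin of the blood-brain barrier, ranged from 13.9 to 18.9 CPM in WT and 10.9 to 15.9 CPM in dKO, with values of -0.16 relative to the library (SE 0.12) and 0.26 per spike-in count (SE 0.15) that did not pass, the second of which passed without WT 3 (adjusted p = 0.0228) or dKO 4 (0.0445). Esam spread least in WT, from 15.98 to 17.2 CPM, and ranged from 12.8 to 18.3 CPM in dKO. Its values of -0.14 (SE 0.09, adjusted p = 0.315, edgeR) and 0.30 per spike-in count (SE 0.14, adjusted p = 0.0611) did not pass; without dKO 3 the relative value was -0.25 and passed (adjusted p = 0.0384), and per spike-in count Esam passed without WT 5 (0.0450) or dKO 1 (0.00798).

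**Figure D2:**
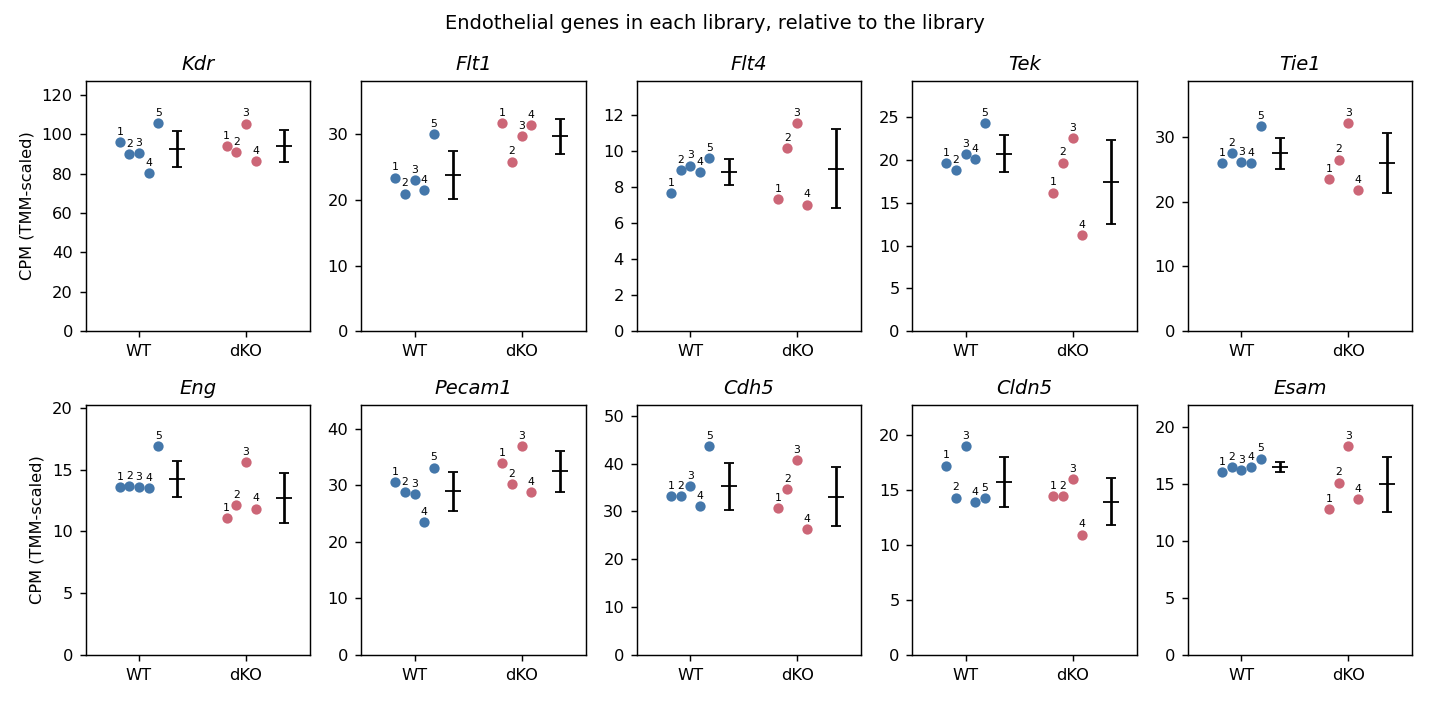
CPM of each member in every library (points, numbered by replicate) with the group mean and SD (bars), relative to the library. WT 5 was the highest WT library and dKO 3 the highest dKO library in 9 of the 10 panels.

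**Figure D3:**
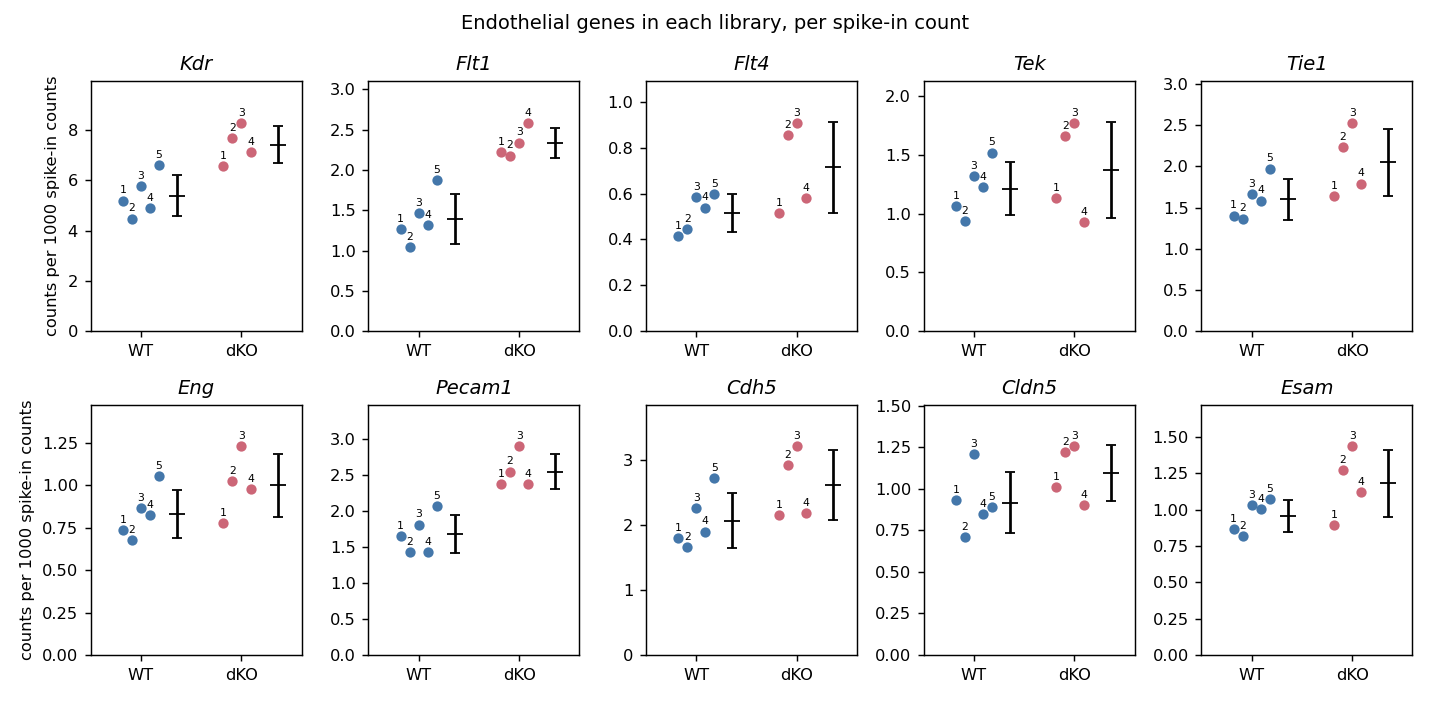
The same libraries with each member given as counts per 1000 spike-in counts, with group mean and SD. The groups are free of overlap for Flt1 and Pecam1 and overlap for the other 8 members. Over all tested genes 48.4% were free of overlap with dKO higher.

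Whether 2 members differed between the groups by the same amount was asked from their ratio within a library, which needs no scaling. In all, 5 such ratios were compared with exact permutation tests over all 126 assignments (two-sided), and p-values were adjusted over these 5. The ratio of Flt1 to Kdr counts was 0.256 ± 0.0200 in WT (SD, n = 5) and 0.317 ± 0.0403 in dKO (n = 4), a log2 difference of 0.30 (exact permutation p = 0.0238, adjusted 0.0926). The WT libraries reached from 0.233 to 0.283 and the dKO libraries from 0.282 to 0.363, so they met at the border. Pecam1 to Cdh5 was 0.822 ± 0.0704 in WT (n = 5) and 0.995 ± 0.122 in dKO (n = 4), a log2 difference of 0.27 (exact permutation p = 0.0476, adjusted 0.0926). Tie1 to Tek was 1.33 ± 0.0763 in WT and 1.54 ± 0.268 in dKO, a log2 difference of 0.20 (exact permutation p = 0.0556, adjusted 0.0926), and dKO 4 alone reached 1.93. Flt4 to Kdr differed by -0.03 (exact permutation p = 0.841) and Cldn5 to Cdh5 by -0.08 (exact permutation p = 0.659). None of the 5 passed after adjustment, where the smallest raw p that 126 assignments can give is 0.00794. Without WT 2, 3 and 4, Flt1 to Kdr, Pecam1 to Cdh5 and Tie1 to Tek gave exact permutation p = 0.200, 0.267 and 0.267, with 0.0667 the smallest that 15 assignments allow.

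Most members varied together from embryo to embryo. WT 5 was the highest WT library for 9 of 10 members and dKO 3 the highest dKO library for 9 of 10, while dKO 4 was the lowest dKO library for 7 and WT 4 the lowest WT library for 5. Over all tested genes WT 5 was the highest WT library for 20.5%, dKO 3 the highest dKO library for 20.4%, dKO 4 the lowest for 26.4% and WT 4 for 18.5%. The exceptions among the highest libraries were Cldn5, highest in WT 3, and Flt1, highest in dKO 1. In dKO 4 Flt1 stood at 31.4 CPM, above every WT library. Among 32 other endothelial genes, WT 5 was highest for 24, dKO 3 highest for 21, dKO 4 lowest for 24 and WT 4 lowest for 17. The count of the 10 members divided by that of the 32 other genes stayed between 0.586 and 0.639 in WT and between 0.581 and 0.626 in dKO, although the members' sum itself ran from 249 CPM in dKO 4 to 329 CPM in dKO 3.

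**Figure D4:**
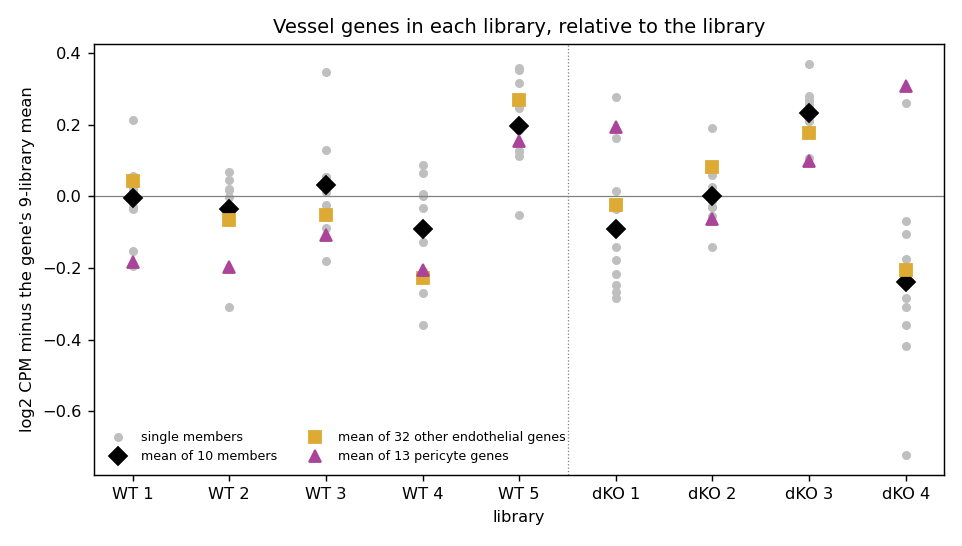
Log2 CPM in each library minus the same gene's mean over 9 libraries, for single members (grey), and as means of the 10 members, 32 other endothelial genes and 13 pericyte genes. Members and other endothelial genes are both high in WT 5 and dKO 3 and low in dKO 4, where the pericyte mean, which holds Tagln and Acta2, is at its highest (0.31).

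Markers of other cells that can hold some of these transcripts were set beside them. Of all tested genes, 13.7% were higher and 12% lower relative to the library in edgeR. Without WT 2, 3 and 4 these shares were 2.51% and 0.949%, and per spike-in count over all libraries they were 61.1% and 0.698%. Platelets also express Pecam1, and some blood cells express Eng. Of 10 megakaryocyte and platelet markers, 7 were tested and 0 passed relative to the library in edgeR, DESeq2 or voom (2 lower and 0 higher at an unadjusted p under 0.05), with Gp1bb (-0.35) and Gp9 (-0.64) nearest to the threshold, and 0 passed without WT 2, 3 and 4 (2 unadjusted, edgeR). Their sum was 18.4 to 29.5 CPM in WT and 19.1 to 27.3 CPM in dKO. Per spike-in count 1 of the 7 was higher and 0 lower, where 61.1% of all genes were higher and 0.698% lower. Macrophage markers summed to 101 to 121 CPM in WT and 119 to 169 CPM in dKO. Of these 13, Mrc1 (0.65, adjusted p = 0.0187, edgeR), a receptor of border macrophages, was higher and P2ry12 (-0.86, adjusted p = 0.00930), a microglial receptor, lower relative to the library, while DESeq2 called 3 higher and 1 lower. Without WT 2, 3 and 4 neither passed (adjusted p = 0.242 and 0.252, edgeR), and per spike-in count 10 of the 13 were higher and 0 lower (0 unadjusted and in DESeq2 and voom). Erythroid markers summed to 2545 to 6768 CPM in WT and 2014 to 3635 CPM in dKO. Relative to the library Hba-a2 (-0.69) and Hba-a1 (-0.58) were lower of 12, and 3 were lower without WT 2, 3 and 4, beside 0.949% of all genes. Per spike-in count 0 of the 12 were higher (1 in voom) and 0 lower in edgeR. Without WT 2, 3 and 4, 0 were higher and 6 lower on that scale (49.1% and 0.25% of all genes). The erythroid sum had a mean of 5566 CPM in WT 1 and WT 5 and of 2934 CPM in WT 2, 3 and 4. Meningeal and mesenchymal markers summed to 860 to 1081 CPM in WT and 774 to 1139 CPM in dKO, and 1 of 12, the transporter Slc6a13 (-1.04), was lower relative to the library. Slc6a13 did not pass without WT 2, 3 and 4 (-0.55, adjusted p = 0.394, edgeR), and per spike-in count 7 of these 12 were higher and 1 lower. None of the listed markers of these cells, tested or not, was at 0 in every library. Of 14 telencephalic markers 1 was higher relative to the library, the progenitor filament Nes (0.59), and 7 were lower, with Dlx1 (-0.86), an interneuron factor, foremost. In either direction 57.1% of this list was called, beside 25.7% of all tested genes. The split was 1 higher and 2 lower without WT 2, 3 and 4, and per spike-in count it was 6 higher and 2 lower. The part of these cells in the endothelial values was not tested.

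The 32 other endothelial genes also gave few calls relative to the library. Relative to the library 1 was higher, Rhoj, a small GTPase of vessel morphogenesis (0.30, SE 0.08, adjusted p = 0.0158, edgeR), and 0 were lower (0 also unadjusted, in DESeq2 and in voom). Mmrn2 (0.30, adjusted p = 0.0588, edgeR) and Ecscr (0.26, adjusted p = 0.0936) followed and did not pass. Of all tested genes 13.7% were higher and 12% lower relative to the library. The list's median was 0.03 relative to the library and 0.46 per spike-in count. There 21 were higher and 0 lower (0 unadjusted and in the other 2 tools), beside 61.1% and 0.698% of all genes. Without WT 2, 3 and 4, 0 were called relative to the library (3.46% of all genes). An unadjusted p under 0.05 was reached by 5 (edgeR), beside 3447 of all 17182 genes. The relative median was then -0.18, and 8 of 32 were higher per spike-in count, beside 49.1% of all genes. These 32 genes summed to a mean of 518 CPM in WT 1 and WT 5 and of 428 CPM in WT 2, 3 and 4. Of 14 pericyte and smooth muscle genes, 13 were tested and the 2 contractile genes Tagln (2.75, SE 0.49) and Acta2 (2.54, SE 0.58) were higher, with 0 lower in edgeR, DESeq2 and voom (2 unadjusted, edgeR). Neither passed without WT 2, 3 and 4 (adjusted p = 0.124 and 0.205). The list's median was -0.14, and per spike-in count 5 of 13 were higher and 0 lower (61.1% and 0.698% of all genes).

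Genes for the ligands and partners of the endothelial receptors changed in both directions. Of 20 listed, 18 were tested, and 6 were higher and 4 lower relative to the library (25.7% of all genes were called in either direction). Bmp6 (1.62, SE 0.15, adjusted p = 6.11e-05, edgeR), a BMP ligand, Itgb8 (0.73, SE 0.08), an integrin subunit that activates TGF-beta, and Tgfb2 (1.30, SE 0.16) rose, and all 3 passed without WT 2, 3 and 4. The other 3 of the 6 were named after their values were seen, because they bear on the members. Vegfa, the ligand of Kdr and Flt1, had 62.1 ± 11.7 CPM across WT (SD, n = 5) against 90.7 ± 18.3 CPM across dKO (n = 4; 0.54, SE 0.14, adjusted p = 0.0180, edgeR). Angpt2, which can block Tek, went from 3.22 ± 0.361 to 6.65 ± 3.07 CPM (1.03, SE 0.25, adjusted p = 0.0115). Itgav, the partner of Itgb8, rose by 0.18. The 4 lower genes were Pgf (-0.80, SE 0.14), which among the VEGF receptor kinases binds Flt1, Angpt1 (-0.48, SE 0.09), the activating ligand of Tek, the VEGF co-receptor Nrp1 (-0.35, SE 0.08) and the vessel-guiding ligand Wnt7b (-0.16, SE 0.05). Relative to the library, Vegfa, Angpt2, Itgav and all 4 lower genes did not pass without WT 2, 3 and 4. Per spike-in count 11 of 18 were higher and 0 lower (0 unadjusted and in DESeq2 and voom), beside 61.1% and 0.698% of all genes. There Angpt1 stood at -0.05, Nrp1 at 0.08 and Pgf at -0.37 (adjusted p = 0.117, edgeR). Wnt7b, lower relative to the library, was higher per spike-in count (0.28, adjusted p = 0.0260, edgeR).

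Tip cells lead vessel sprouts, and 8 of 12 tip cell genes were higher relative to the library with 0 lower (edgeR; 0 lower also unadjusted and in DESeq2 and voom), beside 13.7% higher and 12% lower of all genes. Their median was 0.76, and per spike-in count 11 of 12 were higher, beside 61.1% of all genes. Mcam, an adhesion receptor also found outside endothelium, went from 45.9 ± 3.83 to 182 ± 65.6 CPM (1.98, SE 0.19, adjusted p = 7.54e-05, edgeR), and Esm1, a secreted proteoglycan, from 0.810 ± 0.275 to 3.27 ± 1.58 CPM (1.97, SE 0.35). Dll4, the Notch ligand that defines tip cells, was at 6.20 ± 0.429 CPM in WT and 5.84 ± 0.648 CPM in dKO and did not pass (-0.09, adjusted p = 0.593, edgeR). Unc5b (-0.07, adjusted p = 0.754), Nid2 (-0.13, 0.268) and Plaur (1.07, 0.0573) did not pass either. Which cells held the tip cell transcripts was not tested. Without WT 2, 3 and 4 only Mcam passed, beside 3.46% of all genes. An unadjusted p under 0.05 was reached there by 7 (edgeR), beside 3447 of all 17182 genes. Of 20 brain endothelial and barrier genes, 4 were higher relative to the library, namely the monocarboxylate transporter Slc16a1 (0.50), the junction scaffold Tjp1 (0.50), the lipid transporter Mfsd2a (0.91) and the amino acid transporter Slc7a5 (0.33), and the Wnt effector Lef1 (-0.54) and the thyroid hormone transporter Slco1c1 (-0.92) were lower, a share near the 25.7% of all genes called in either direction. Per spike-in count 14 were higher and 0 lower, beside 61.1% and 0.698% of all genes (edgeR). At an unadjusted p under 0.05 there 1 was lower in edgeR, and DESeq2 and voom called 0 lower. Lef1 stood at -0.10 (adjusted p = 0.534, edgeR) and Slco1c1 at -0.47 (adjusted p = 0.117). Neural progenitors express several of these too, and the cells of origin cannot be told apart in bulk tissue. Slc16a1, Tjp1 and Slc7a5 passed without WT 2, 3 and 4.

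Of 15 arterial, venous and lymphatic genes, Pdpn (1.16, SE 0.13, adjusted p = 0.000179, edgeR) and Lyve1 (1.21, SE 0.31), both lymphatic markers that other cells express as well, were higher relative to the library, and the lymphatic and neural factor Prox1 (-0.74), the arterial ligand Efnb2 (-0.27) and the Notch effector Hey1 (-0.35) were lower. These 5 calls of 15 stand beside 25.7% of all genes called in either direction. Pdpn was the single call of the 5 left relative to the library without WT 2, 3 and 4. Per spike-in count 9 of 15 were higher and 0 lower in edgeR, beside 61.1% and 0.698% of all genes, and DESeq2 and voom called 0 lower. Efnb2 stood at 0.17 and Hey1 at 0.08. Prox1 stood at -0.32 (adjusted p = 0.0683, edgeR) and was the 1 gene lower at an unadjusted p under 0.05. Without WT 2, 3 and 4 Prox1 was lower per spike-in count (-0.46, adjusted p = 0.0291, edgeR), as were 0.25% of all genes. Of 22 tested genes that act downstream of the receptors, 5 were higher and 2 lower relative to the library, a share near the same 25.7%. The 5 were Smad6 (0.71, SE 0.11), an inhibitor of BMP signalling, the phosphatase Ptpn11 (0.23), the calcineurin regulator Rcan1 (0.33), the exchange factor Vav1 (0.58) and the phospholipase Plcg2 (0.54), and the 2 were Plcg1 (-0.28), the phospholipase that Kdr activates, and the adaptor Shb (-0.27). Per spike-in count 16 of 22 were higher and 0 lower (0 unadjusted and in DESeq2 and voom), beside 61.1% and 0.698% of all genes. There Plcg1 stood at 0.16 and Shb at 0.17. None of these 7 passed relative to the library without WT 2, 3 and 4, where the smallest adjusted p among them was 0.0614 for Smad6 (edgeR).

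**Figure D5:**
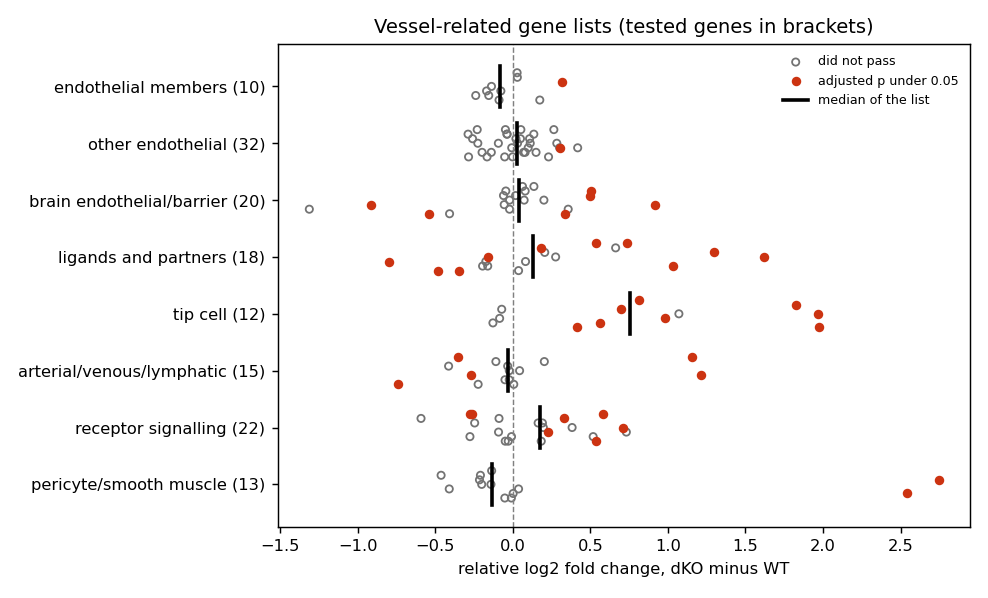
Relative log2 fold change, dKO minus WT, of every tested gene in 8 lists (1 point a gene, filled where the edgeR adjusted p was under 0.05), with a bar at each list's median. The endothelial members and the 32 other endothelial genes gather around 0 with 1 call each. Of the tip cell genes 8 of 12 and of the ligand and partner genes 10 of 18 were called, against 25.7% of all tested genes. Without WT 2, 3 and 4 these counts were 1 of 12 and 3 of 18, against 3.46% of all tested genes.

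Levels of different genes were compared in WT per kilobase of exon, using the summed exon length of each gene in GENCODE M21 on GRCm38, which need not be the annotation that was counted. Kdr was highest, at 15.6 ± 1.57 CPM per kilobase (SD, n = 5), followed by Cldn5 (11.1 ± 1.59), Cdh5 (8.83 ± 1.22), Esam (8.82 ± 0.248), Pecam1 (6.996 ± 0.855), Tie1 (6.02 ± 0.534), Tek (4.41 ± 0.453), Eng (3.99 ± 0.413), Flt1 (2.17 ± 0.332) and Flt4 (1.41 ± 0.116). The WT ranges of Cldn5 and Cdh5, of Cdh5 and Esam, of Pecam1 and Tie1, and of Tek and Eng overlapped. The range of Cdh5 also reached into that of Pecam1. Ranges over libraries do not pair genes within a library, so an overlap does not show equal levels. The ranges of Kdr and Cldn5, Esam and Pecam1, Tie1 and Tek, Eng and Flt1, and Flt1 and Flt4 did not overlap.

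The genes outside the list whose CPM over the 9 libraries lay closest to the members' mean pattern were Vwa1, a matrix protein, at a root mean square distance of 0.058 on the log2 scale, Dll4 (0.060), the Notch coactivator Maml3 (0.064), the deacetylase Hdac11 (0.072) and the exchange factor Vav3 (0.072). The median distance over 12557 genes with at least 1 CPM was 0.187. Of the members themselves, Tie1 lay closest to their mean (0.055) and Flt1 farthest (0.250). Flt1 and Tek (0.191) lay farther from it than that median. Genes that hardly vary also come close by this measure, and it says nothing about shared control.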

How the data were processed

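Read counts per gene symbol were deposited by the authors, 1 file per library, without normalization. The submitters' processing notes name STAR, HTSeq and mm9; the sources used here give no versions, annotation or strand setting for a kit that keeps strand. Of all reads, 56.3% to 64.2% were in the counter's summary rows (no gene, several places, not aligned) and stayed out of library sizes and tests. Per the labels' protocols, ERCC mix was added in proportion to counted cells and libraries were made from 350 ng of total RNA.

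Counts were analysed in R 4.3.3 with edgeR 4.0.16 (filterByExpr, quasi-likelihood test, Benjamini-Hochberg adjustment over 17182 genes, threshold 0.05), with TMM scaling or with the spike-in total as library size. SE is the fold change over the root of F. P-values of the spike-in fit share 9 totals. The fits were tested on simulated data. DESeq2 1.42.0, limma 3.58.1 (voom), filters, scalings, left-out libraries and a replicate block were alternatives. The members and the 13 gene lists were chosen with earlier results of these data known. All members were named, and of each list the 3 genes with the smallest adjusted p (2 in lists under 15 genes) and all genes of counts up to 5. For likeness, 0.5 was added to CPM before the log2. Replicates are embryos per the labels; no pair of libraries agreed within sampling noise (chi-square per degree of freedom of at least 4.25 within groups). Proteins were not analysed here.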

Additional observations from a re-analysis of the deposited data

Results flagged for a closer look

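In 50 checks of a single high or low library within a group, where chance flags about 1 in 20, 4 values stood far from the rest of their group, and 3 of them were in the library WT 5. Eng stood at 16.9 CPM in WT 5, while WT 1 to 4 lay between 13.5 and 13.7 CPM. Tie1 stood at 31.6 CPM in WT 5, above 25.9 to 27.5 CPM in the other WT libraries, and Flt1 at 30.02 CPM in WT 5, above 20.9 to 23.4 CPM. The ratio of Tie1 to Tek was 1.46 in WT 2, above 1.26 to 1.32 in the other WT libraries.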

How the results depend on the processing

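Calls relative to the library depended on the libraries used. The number of members called higher was 0 without WT 2, 3 and 4 and 0 with upper quartile normalization. It was also 0 when libraries were scaled to the 32 other endothelial genes, an alternative chosen after seeing the data. Leaving out 1 library gave 0 to 1 higher and 0 to 1 lower (Esam). In those fits 1782 to 2456 of all 17182 genes were higher and 1369 to 2275 lower. Per spike-in count 3 members were higher without WT 2, 3 and 4, where 8439 of all 17182 genes were higher. When 1 library was left out 3 to 8 were higher, with 3 without WT 2, dKO 2 or dKO 3. Of all genes 8879 (without dKO 2) to 11454 (without dKO 1) were higher there. Flt1, Kdr and Pecam1 passed in all 9 fits without 1 library. The cause was not tested. Values near 0 changed sign: Kdr was -0.10 without WT 2, 3 and 4 and ranged from -0.025 to 0.082 when 1 library was left out, Flt4 was -0.011 in voom and -0.0096 when scaled to other endothelial genes and ranged from -0.11 to 0.12, and Cdh5 ranged from -0.20 to 0.00084. The ratio of Flt4 to Kdr was 0.14 and that of Cldn5 to Cdh5 0.039 without WT 2, 3 and 4, and with 1 library left out they ranged from -0.11 to 0.062 and from -0.19 to -0.0077. Flt1 to Kdr ranged from 0.23 to 0.35, Pecam1 to Cdh5 from 0.22 to 0.33 and Tie1 to Tek from 0.086 to 0.26. The other alternatives kept each count of called members within 1.5 times. Replicate numbers occur in both groups, but same-numbered libraries did not deviate together (correlations -0.15, -0.13, -0.26 and 0.14 for numbers 1 to 4, and 1 of the 4 WT libraries correlated best with its own number). With the replicate block over numbers 1 to 4, a fit that also drops WT 5, 1 member was higher relative to the library (Flt1, 0.41) and 8 per spike-in count; dropping WT 5 without a block gave the same 8 members and Flt1 at 0.42. With the block, over all genes 1883 were higher and 1603 lower relative to the library, and 10463 were higher and 146 lower per spike-in count.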
